A study of Mus musculus with 20 samples.

Results

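In 4 separately deposited tables of RNA editing from mouse embryo and embryonic brain, 539 positions were listed in every table with the same reference base and were covered by 10 or more reads in each of the 16 libraries made with an antibody. These were 539 of the 783945 positions listed in any table, and 975 positions were listed in all 4 at any depth. The choice used the listing, the reference base and the depth. No limit on edited reads was added to it, but whether the listing itself depended on edited reads is not given in the sources used here. The positions lie in 465 genes. They allow the edited share, meaning the edited reads as a percentage of all reads at a position, to be compared at the same bases in every sample.

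The study used MAPIT-seq on sections of mouse tissue. In this assay a primary antibody binds a protein in the fixed tissue, a secondary antibody binds the primary, and a protein A/G fusion of the rat cytidine deaminase APOBEC1 and the human adenosine deaminase ADAR2 (rAPOBEC1-pAG-hADAR2) is brought to them. RNA close to the target protein then carries C-to-U changes, read as C-to-T, and A-to-I changes, read as A-to-G. The target was G3BP1, an RNA-binding protein of the cytoplasm.

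All samples were C57BL/6J, genotype WT. Fixed E10.5 embryos, tissue labelled fresh-frozen E10.5 embryo, fresh-frozen E12.5 brain and fresh-frozen E16.5 brain each gave 2 libraries with rabbit IgG and 2 with anti-G3BP1. Both kinds of library were fixed with 0.2% FA and received the guinea pig anti-rabbit antibody and the fusion. The 2 E10.5 tables also hold 2 untreated libraries each, with no antibody and no fusion. Their fixation is given as none, although the titles of those of the fixed embryo call them fixed. Whether replicates were separate animals is not in the labels, so every p-value reflects the spread of these samples alone, and that spread may be technical.

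G3BP1 nucleates stress granules, cytoplasmic bodies in which messenger RNAs collect when translation is blocked, and it also binds many transcripts in unstressed cells. ADAR enzymes edit adenosines most readily in double-stranded RNA and disfavour a G just before the edited base. APOBEC1 prefers cytidines that follow an A or U in AU-rich RNA. Endogenous ADAR enzymes also edit inverted repeats in 3′ UTRs, so a position can be changed without any fusion. A rabbit IgG binds no chosen target, so its libraries give the background of fusion that is not directed to a protein.

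The windows that follow show the positions on which the results turn, with 10 bases on each side. They are read 5′ to 3′ on the transcript strand from the GENCODE vM21 transcripts of GRCm38, the build that the submitters' processing notes name, and the capital marks the edited base. The first 7 are A-to-G positions that rose with anti-G3BP1 and had at most a few edited reads without treatment. The next 3 are C-to-T positions that rose. The last 2 are A-to-G positions that were already edited without treatment.
Rtn4: atactactaaAgcagagtgga
Nme1: ctggttttctAcctgcttact
Palm: cgcctggtctAggtccctttc
Eno1: accagctgctAggtcctctat
Tcaf1: ggtccatttcAgacagaatat
Tspan13: tggttgtcctAgaactagctc
Hsph1: ggctctgtcaAcatggacctg
Nedd4: agctatttgaCattgttttta
Smarce1: tagatttttaCtgaatagtgg
Atp1b1: accccatagaCtggtgttaag
Hjurp: ctgcctttgaAgtcccacctg
Rpa1: aacagaaattAtgtcacaagt
These windows lie in 3′ UTRs, except that of Hsph1, which is coding. On the plus strand are Rtn4 at chr11:29742444-29742464, Palm at chr10:79820553-79820573, Eno1 at chr4:150248582-150248602 and Nedd4 at chr9:72749707-72749727. On the minus strand are Nme1 at chr11:93959365-93959385, Tcaf1 at chr6:42670156-42670176, Tspan13 at chr12:36014805-36014825 and Hsph1 at chr5:149617513-149617533. Smarce1 at chr11:99209105-99209125, Atp1b1 at chr1:164437229-164437249, Hjurp at chr1:88263978-88263998 and Rpa1 at chr11:75301005-75301025 are also on the minus strand.

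Of the 539 positions, 376 (69.8%) were A-to-G and 163 (30.2%) were C-to-T. In 3′ UTRs lay 452 (83.9%), in coding sequence 63 (11.7%), in noncoding exons 23 and in a 5′ UTR 1. A single position was found in 413 of the genes, and the most in 1 gene were the 5 of Rpa1. All 465 host genes were matched to the deposited expression tables. Their median level, in TPM (transcripts scaled to a fixed total per library), was 72.4 in the fixed embryo, 94.5 in the set labelled fresh-frozen, 96.7 at E12.5 and 98.1 at E16.5. The medians over all expressed genes were 13.6, 16.7, 16.3 and 19.2 TPM in the same order, so the shared positions sit in abundant transcripts. Depth was part of the rule that chose them. No shared position lay in G3bp1, in its paralogue G3bp2 or in Caprin1, which encodes a G3BP1 partner.

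The bases around the shared positions were set beside those around the other positions of each table with 10 or more reads in its antibody libraries. Beyond this minimum the 2 sets were not matched in depth, in region of the transcript or in having an edited read. In E12.5 brain 72% of the shared positions had an edited read, against 23.8% of all positions with that depth. The part of these differences in the base shares that follow was not tested. Of the 376 A-to-G positions, 44.7% followed a T and 38.6% an A, while 4.79% followed a G, and 59.3% preceded a G. The letters TAG, with the edited A in the middle, surrounded 23.7% of them, against 6.02%, 11.5%, 10% and 9.55% of the other A-to-G positions of the fixed embryo, the set labelled fresh-frozen, E12.5 brain and E16.5 brain. The letters CTAG, which include TAG, surrounded 11.4% (43 positions, with Palm, Eno1 and Tspan13 among those shown), against 1.60%, 4.14%, 3.51% and 3.20%. Of the 163 C-to-T positions, 60.1% followed an A, against 23.8%, 37.6%, 33.6% and 33.7% of the others. A or T made up 59.8% of the 20 bases around them, against 49.6%, 54.3%, 50.8% and 52.6%. Both searches used the transcript strand only. The rule by which sites were listed is not given in the sources used here, and its part in these shares was not tested.

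The tissue labels were compared with marker genes before the positions were read. All 5 heart markers were listed in every table. Their summed level was 3190 to 5053 TPM in the fixed embryo and 6.81 to 26.8 TPM in the set labelled fresh-frozen E10.5 embryo, where 1 of the 5 reached 1 TPM in every library and none was at 0 throughout. Trunk markers summed to 542 to 794 TPM in the fixed embryo and to 2.94 to 6.30 TPM in the set labelled fresh-frozen, with 3 of 4 listed there. In this order Hoxb9 averaged 533 and 0.184 TPM and Hoxa9 26 and 0.236 TPM. Tbx6 went the other way, at 3.02 and 4.30 TPM. The 4 markers of late brain glia summed to 16.4 to 22.5 TPM in the fixed embryo, 263 to 440 TPM in the set labelled fresh-frozen and 253 to 294 TPM in E16.5 brain. Markers of neurons, 6 in all, gave 477 to 1057, 3648 to 5275 and 4729 to 4810 TPM in the same order. E12.5 brain had 120 to 191 TPM for the glia markers and 2672 to 3181 TPM for those of neurons. The set labelled fresh-frozen E10.5 embryo thus held the transcripts of brain and hardly any of heart or trunk, and its label is used here only as a name. In such bulk libraries, fewer cells of a type and less RNA per cell cannot be told apart. The part of tissue in any difference between tables was not tested.

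Reads at the shared positions were deepest in E16.5 brain, with a median of 170 to 286 reads per position and library. Medians were 95 to 209 reads in the antibody libraries of the fixed embryo and 54 to 93 in those labelled fresh-frozen. In E12.5 brain they were 52 to 64, except in the first IgG library with 20. At least 1 edited read was seen at 504 positions in the fixed embryo, 520 in the set labelled fresh-frozen, 388 at E12.5 and 521 at E16.5. In this order these were 93.5%, 96.5%, 72% and 96.7% of the shared positions. Of all positions with 10 or more reads in the antibody libraries of their table, 81.5%, 85.2%, 23.8% and 58.8% had an edited read. Edited reads were seen in all 4 tables at 361 positions and in none at 1. The 84 positions whose lowest depth was 10 to 11 reads had edited shares of 6.28% to 11.3% with anti-G3BP1 and 4% to 6.72% with IgG across the tables. The 82 positions at 8 to 9 reads, which were not kept, had 7.09% to 17.5% and 4.48% to 10.4%.

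Pooled over all 539 positions, anti-G3BP1 libraries had a higher edited share than IgG libraries in every table, with no overlap between replicates. In the fixed embryo the share was 3.09% and 3.23% for IgG against 5.36% and 4.75% for anti-G3BP1. In this order of antibodies, which is kept from here on, it was 3.29% and 3.35% against 6.91% and 7.16% in the set labelled fresh-frozen, 5.29% and 4.59% against 9.39% and 9.90% at E12.5 and 2.81% and 3.13% against 4.59% and 4.31% at E16.5. The ratio of the group means averaged 1.78-fold over the tables and ran from 1.5 to 2.12. At the other positions, with 10 or more reads in the antibody libraries of their own table but not matched in depth, it averaged 1.65-fold. The ratios of shared and other positions were 1.6 and 1.24 in the fixed embryo, 2.12 and 1.88 in the set labelled fresh-frozen and 1.95 and 1.94 at E12.5. At E16.5 the shared positions had the lower ratio, 1.5 against 1.63.

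These pooled shares joined positions of different kinds, which the untreated libraries of the 2 E10.5 tables separated. No edited read was seen without treatment at 357 positions (66.2%), and at 148 (27.5%) some untreated reads were edited but under 5%. At 15 positions, 5% or more of the untreated reads were edited. At another 19 positions, 80% or more of the reads were changed in each of the 10 groups. The 19 positions gave 46.8% of the 52728 edited reads counted. The limits of 5% and 80% were set after the data were seen.

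At the 357 positions with no edited read in the untreated libraries, IgG libraries had a low share and anti-G3BP1 libraries a higher one. E12.5 and E16.5 brain have no untreated libraries, and the second untreated library of the fixed embryo had a median of 34 reads per position. In the fixed embryo the pooled share was 0.351% and 0.507% with IgG against 0.889% and 0.745% with anti-G3BP1. In the set labelled fresh-frozen it was 1.75% and 1.97% against 6.06% and 6.31%, and in E12.5 brain 0.927% and 1.63% against 4.30% and 2.87%. In E16.5 brain it was 1.23% and 1.28% against 3.11% and 2.89%. The groups did not overlap in any table, and the ratio averaged 2.55-fold, from 1.90 to 3.33. For the 148 positions with a few untreated edits it averaged 1.92-fold.

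**Figure D1:**
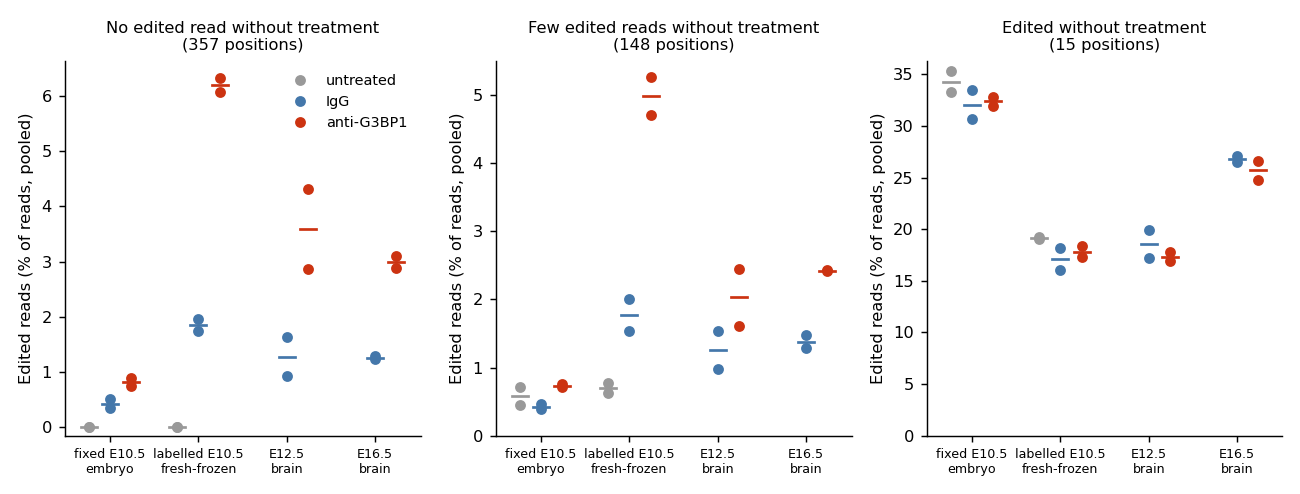
Pooled edited share (percent of reads, y axis) in each library of the 4 tables (x axis), for 3 kinds of shared position, with each point 1 library and each bar a group mean. Anti-G3BP1 points lie above IgG points where untreated libraries had no or few edited reads, with an average ratio of 2.55 and 1.92, and overlap with them at the 15 positions edited in untreated libraries.

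Both kinds of edit were then read apart, and A-to-G positions carried the larger shares. Among the 360 A-to-G positions that were under 50% edited in every antibody library, the pooled share was 0.410% and 0.555% with IgG against 1.06% and 0.908% with anti-G3BP1 in the fixed embryo. It was 2.54% and 2.92% against 7.58% and 8.21% in the set labelled fresh-frozen, 1.24% and 2.31% against 5.26% and 3.52% at E12.5 and 2.11% and 2.22% against 4.38% and 4.08% at E16.5. The average ratio was 2.31-fold, against 1.90-fold at the other A-to-G positions under the same limit. The ratios of shared and other positions were 2.04 and 1.18 in the fixed embryo and 2.89 and 2.24 in the set labelled fresh-frozen, but 2.48 and 2.48 at E12.5 and 1.95 and 1.97 at E16.5.

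The 153 C-to-T positions under 50% stayed lower. They had 0.284% and 0.398% with IgG against 0.521% and 0.414% with anti-G3BP1 in the fixed embryo, and 0.347% and 0.428% against 1.26% and 1.36% in the set labelled fresh-frozen. In E16.5 brain they had 0.278% and 0.305% against 0.409% and 0.472%. The exception was E12.5 brain, with 0.460% and 0.496% for IgG and 0.601% and 0.243% for anti-G3BP1, where the groups overlapped. The average ratio was 1.58-fold, against 1.43-fold at the other C-to-T positions, and at E12.5 the shared positions had the lower one, 0.883 against 1.56. By the base before the C, the ratio averaged 1.91-fold after an A, from 1.05 at E12.5 to 4.47 in the set labelled fresh-frozen, and 1.01-fold after a G, from 0.607 to 1.90. At the other C-to-T positions it averaged 1.87-fold after an A and 1.13-fold after a G. By the base before the A at A-to-G positions it averaged 2.54-fold after A, 2.75-fold after C, 2.21-fold after T and 1.39-fold after G, against 2.19, 1.79, 2.26 and 1.37 at the other A-to-G positions.

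Positions were then tested one by one, with the edited and unedited reads of all 4 tables in a single model in which table was a block. A change is a log2 odds ratio, anti-G3BP1 over IgG, and was called at an adjusted p under 0.05. Of the 539 positions, 428 had the 10 edited reads the test required. A position could reach that number through its anti-G3BP1 reads alone, so counts and medians over tested positions are descriptions of those that passed. The edited share was called higher with anti-G3BP1 at 193 positions (45.1%) in 177 genes, and lower at 1 (0.234%), in Hjurp. With limma on the empirical logit 102 positions were called higher, and with edgeR 123. The log2 changes of the 193 ran from 0.56 to 3.31 with a median of 1.79. In 11 of the 193 both anti-G3BP1 libraries lay above both IgG libraries in all 4 tables, in 60 in 3 tables and in 90 in 2. Over all 428 tested positions the same held at 11 (2.57%) in 4 tables, at 66 (15.4%) in 3 and at 125 (29.2%) in 2.

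By edit type, 186 of the 347 tested A-to-G positions (53.6%) and 7 of the 81 tested C-to-T positions (8.64%) were called higher, with median log2 changes of 1.36 and 0.63. By place, 174 of 360 in 3′ UTRs, 19 of 46 in coding sequence and 0 of 21 in noncoding exons were called higher, but 16 of the 21 were at 80% or more in each group by the rule that set them apart. By untreated share, 163 of 298 with no untreated edit, 30 of 96 with a few, 0 of 15 at 5% or more and 0 of 19 changed in nearly every read were called higher.

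**Figure D2:**
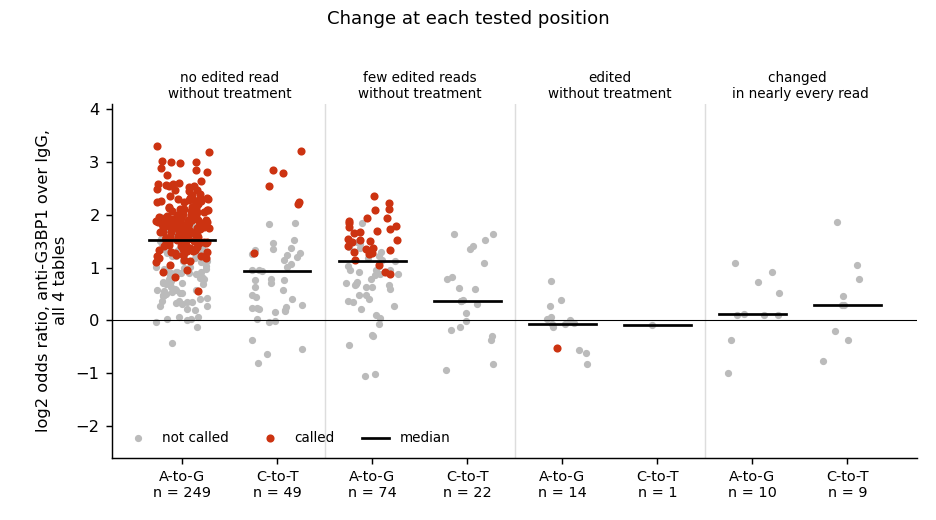
Log2 odds ratio of anti-G3BP1 over IgG over all 4 tables (y axis) for each of the 428 tested positions, by edit type and untreated share (x axis); red points were called and black lines are medians. Called positions lie among those with no or few edited reads without treatment, and the 1 called position under 0 is Hjurp, among those edited without treatment.

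The A-to-G position in Rtn4, which encodes the reticulon Nogo that shapes the endoplasmic reticulum and limits axon growth, had the smallest p. It was edited in 1.23% and 1.48% of reads with IgG against 2.70% and 0.775% with anti-G3BP1 in the fixed embryo. In the set labelled fresh-frozen it was edited in 5% and 3.36% with IgG against 22% and 23.3% with anti-G3BP1. In E12.5 brain the shares were 8.33% and 10.2% against 20% and 7.78%, and in E16.5 brain 6.30% and 5.16% against 12.8% and 14.2%. The groups were apart in the set labelled fresh-frozen and in E16.5 brain and overlapped in the other tables. The change over all tables was 1.5 ± 0.19 (log2, SE, adjusted p = 4.96e-07), and limma on the empirical logit did not call it.

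In 4 of the 8 A-to-G positions with the smallest p, those of Nme1, Tmx4, Palm and Eno1, both anti-G3BP1 libraries were above both IgG libraries in every table. Nme1, a nucleoside diphosphate kinase, had 0.835% and 1.54% with IgG against 3% and 5.20% with anti-G3BP1 in the fixed embryo, and 7.46% and 8.49% against 15.3% and 21.1% in the set labelled fresh-frozen. It had 0% and 1.43% against 16.4% and 13% at E12.5 and 4.31% and 3.94% against 11.6% and 10.6% at E16.5. The change was 1.55 ± 0.20 (adjusted p = 5.09e-07).

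Palm encodes paralemmin, a lipid-anchored protein of the inner plasma membrane. Neither IgG library of the fixed embryo had an edited read there, and the anti-G3BP1 libraries had 0.769% and 1.94%. The shares were 1.67% and 2.60% against 16.1% and 14.7% in the set labelled fresh-frozen, 4% and 0% against 7.29% and 7.53% at E12.5 and 1.20% and 2.64% against 6.32% and 6.84% at E16.5. The change was 2.36 ± 0.36 (adjusted p = 8.39e-07).

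Eno1 encodes the glycolytic enzyme enolase. Its position had 0.268% and 0.935% with IgG against 2.44% and 3.62% with anti-G3BP1 in the fixed embryo, and 3.45% and 2.99% against 11.1% and 16.54% in the set labelled fresh-frozen. The shares were 0% and 3.48% against 10.2% and 8.18% at E12.5 and 1.13% and 1.40% against 9.09% and 6.30% at E16.5. The change was 2.35 ± 0.37 (adjusted p = 1.2e-06), and it was the only tested shared position of the glycolysis and energy list, which had 2.

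Tmx4, a thioredoxin-like membrane protein of the endoplasmic reticulum, changed by 1.73 ± 0.24. Tcaf1, a regulator of TRP channels, changed by 2.52 ± 0.38 and was at 0.667% and 5.15% with IgG against 24.8% and 18.4% with anti-G3BP1 in the set labelled fresh-frozen. Its groups overlapped in the fixed embryo, where 1 of the 4 antibody libraries had edited reads. Tspan13, a tetraspanin, changed by 2.27 ± 0.34. The coding position of Hsph1, a chaperone of the HSP110 family, changed by 3.18 ± 0.57, from 0.552% and 0.797% to 9.13% and 7.49% in E16.5 brain.

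All 7 C-to-T positions called higher had no edited read without treatment and followed an A. Nedd4, a ubiquitin ligase, had the smallest p among them. No edited read was seen with anti-G3BP1 in the fixed embryo, where the IgG libraries had 0.426% and 0%. In the set labelled fresh-frozen it had 0.218% and 0% with IgG against 3.12% and 5.07% with anti-G3BP1, in E12.5 brain 0% and 0% against 3.12% and 2.17%, and in E16.5 brain 0.385% and 0% against 2.04% and 2.03%. The groups were apart in 3 tables, and the change was 3.21 ± 0.67 (adjusted p = 1.41e-05).

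Smarce1, a subunit of the BAF chromatin remodeller, followed with 2.21 ± 0.62 (adjusted p = 0.00158). It had 1.21% and 0.699% against 3% and 3.12% in E16.5 brain, and the call was lost without the set labelled fresh-frozen. Atp1b1, the beta subunit of the sodium pump, changed by 2.79 ± 0.90 (adjusted p = 0.00321) and lost the call without E16.5 brain. The other C-to-T positions called were in Dcaf8 (2.85 ± 1.09), Pdap1 (2.25 ± 0.93), Hnrnpk (1.28 ± 0.49) and Kmt2d (2.54 ± 1.12). Each of these 4 lost its call without E16.5 brain and in the limma fit. The position in Smc3, a cohesin subunit, did not pass, at 1.34 ± 0.61 (adjusted p = 0.0565).

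**Figure D3:**
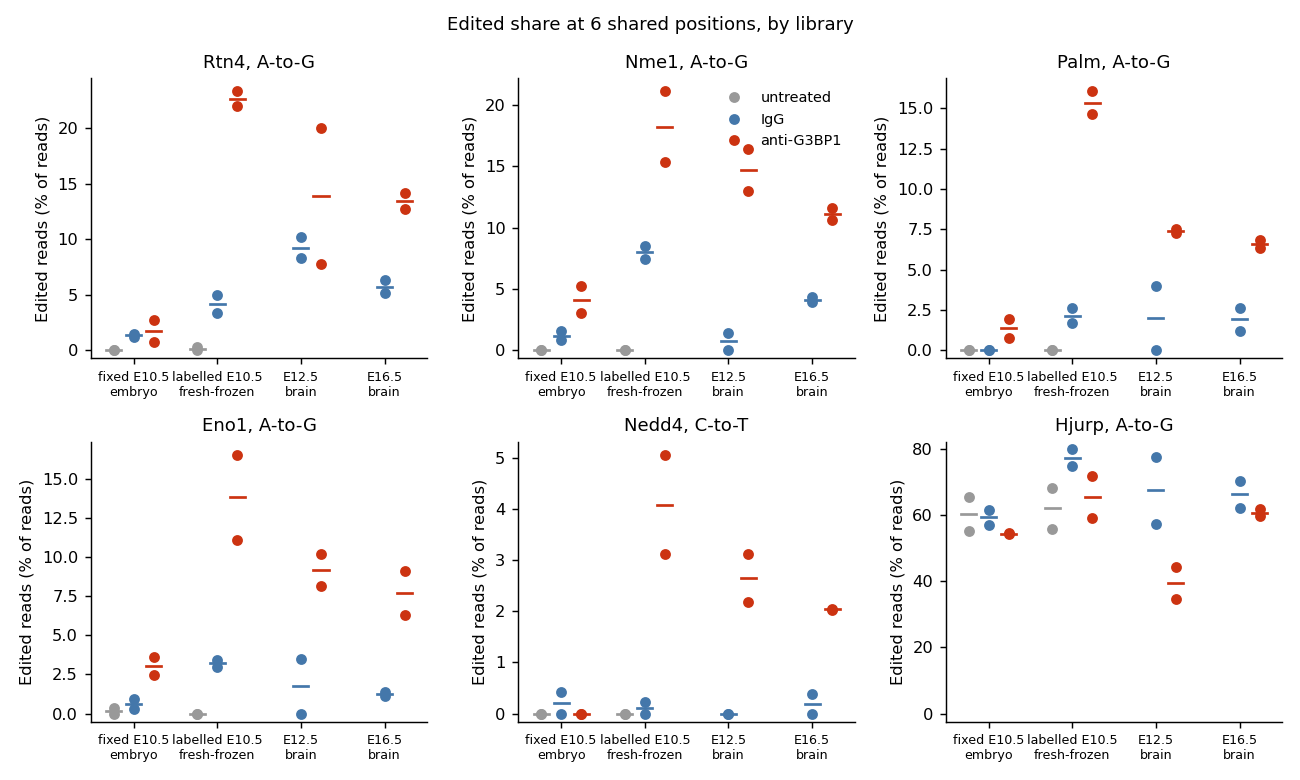
Edited share (percent of reads, y axis) at 6 shared positions in each library of the 4 tables (x axis); points are libraries and bars group means. At Nme1, Palm and Eno1 both anti-G3BP1 libraries lie above both IgG libraries in every table, at Rtn4 in 2 and at Nedd4 in 3, and at Hjurp both lie below.

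Positions that were edited without treatment differed from these in their pooled shares. Of the 15, 14 were A-to-G, in Hjurp, Taf1a, Rpa1, Psma3, B4galt7, Bfar, Akap8, Zfp811, Lix1l, Wipi2 and Grik5, and 1 was C-to-T, in Gm47283 on chromosome Y. They were chosen on the untreated share, after the 19 positions changed in nearly every read in all 10 groups had been set apart. Over the 14, the pooled share in the fixed embryo was 24.2% and 24.5% without treatment, 24.3% and 20.4% with IgG against 22.4% and 23.5% with anti-G3BP1. In the set labelled fresh-frozen it was 19% and 19.2% without treatment, 15.7% and 18.2% with IgG against 17.2% and 18.7% with anti-G3BP1. The shares were 17.9% and 19.5% against 17% and 16.4% at E12.5 and 26.7% and 26.2% against 26.3% and 25% at E16.5. The IgG and anti-G3BP1 replicates overlapped in both E10.5 tables and in E16.5 brain, and in E12.5 brain both anti-G3BP1 libraries lay below both IgG libraries. Taken position by position, 10 of the 14 were above their IgG share in the fixed embryo and 4 below, with medians of 1.45% for IgG and 8.57% for anti-G3BP1. There were 7 above and 7 below in the set labelled fresh-frozen, at E12.5 5 above and 6 below, and at E16.5 2 above and 12 below.

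Over all 15, the mean ratio of anti-G3BP1 to IgG was 0.986. The median log2 change was -0.07, with 0 called higher. The Rpa1 position, in the gene of the largest subunit of the single-strand DNA-binding complex RPA, was edited in 55.3% to 90% of untreated reads. It had 84.5% and 82.2% with IgG against 84.7% and 86% with anti-G3BP1 in E16.5 brain, and its change was 0.38 ± 0.19 (adjusted p = 0.0957).

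Hjurp, which encodes the chaperone that loads the centromeric histone CENP-A, held the only position called lower. Its share was 61.7% and 57% with IgG against 54.3% and 54.6% with anti-G3BP1 in the fixed embryo, and 75% and 80% against 59.3% and 72% in the set labelled fresh-frozen. In E12.5 brain it was 77.8% and 57.4% against 34.8% and 44.3%, and in E16.5 brain 70.5% and 62.3% against 59.8% and 61.9%. Both anti-G3BP1 libraries lay below both IgG libraries in all 4 tables. Untreated libraries had 65.5% and 55.3% in the fixed embryo and 68.3% and 55.9% in the set labelled fresh-frozen. The change was -0.53 ± 0.12 (adjusted p = 0.00112), and it was not called by limma (adjusted p = 0.17) or edgeR (adjusted p = 0.162). Hjurp was singled out after its values were seen.

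The 19 positions changed in nearly every read were at 80% or more in each group by the rule that chose them, so their ratio of 1 is no result. Of these, 16 lay in noncoding exons, many in processed pseudogenes of ribosomal proteins and of other abundant transcripts. Rps3a2, Rps19-ps6, Rpsa-ps10, Rpl7-ps9 and Vcp-rs were among their hosts, and Ssr2 held the 1 position in a 5′ UTR. Reads from a pseudogene and its parent gene can be split by the aligner, so the gene named for such a position is uncertain. At Gm15772, Gm8566, Rps3a2 and Gm4948 every untreated read was changed.

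Reads were summed over the shared positions of a gene for the 38 genes with 50 or more reads in every library and 10 or more edited reads. The edited share was called higher with anti-G3BP1 in 26 of them (68.4%) and lower in 0 (0%), with 0 lower at an unadjusted p under 0.05 also. The median log2 change was 1.26 over the 38 and 1.45 over the 26, and in 14 of the 26 the estimate was above 0 in every table. With limma on the empirical logit 12 were called higher, and without the set labelled fresh-frozen 13.

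The largest called changes among genes with replicates apart in at least 3 tables were in 9530068E07Rik (2.42 ± 0.62), Septin2 (2.22 ± 0.50), Sf3b2 (1.93 ± 0.38), Arvcf (1.75 ± 0.45) and H3f3b (1.64 ± 0.31). Septin2 encodes a filament-forming GTPase, Sf3b2 a subunit of the U2 spliceosomal particle, Arvcf a catenin of cell junctions and H3f3b the histone variant H3.3. Sf3b2 had 4.5% and 1.94% with IgG against 10.4% and 19.3% with anti-G3BP1 in the set labelled fresh-frozen, and 0% and 3.31% against 12.2% and 13% in E12.5 brain. It had 3.76% and 2.86% against 12.3% and 8.58% in E16.5 brain, and in the fixed embryo a single library, with 0.370%, had edited reads.

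H3f3b had 1.85% and 1.41% against 8.42% and 11.5% in the set labelled fresh-frozen, 1.82% and 2.60% against 9.27% and 6.25% at E12.5 and 3.19% and 1.77% against 6.45% and 5.52% at E16.5. In the fixed embryo, at 0.341% and 0.177% against 1.86% and 0%, its groups overlapped. Arvcf and Arl6ip1, a shaper of the endoplasmic reticulum, had both anti-G3BP1 libraries above both IgG libraries in every table. Arvcf had 0.352% and 0.559% against 1.37% and 0.758% in the fixed embryo, 2.80% and 1.48% against 7.63% and 9.69% in the set labelled fresh-frozen, 0% and 0% against 6.47% and 6.25% at E12.5 and 1.45% and 2.01% against 2.35% and 4.34% at E16.5.

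The next were Dcc, the netrin receptor of growing axons (1.47 ± 0.28), Baz1b, a chromatin remodeller subunit (1.47 ± 0.44), Myef2, a repressor of the myelin basic protein gene (1.32 ± 0.30), Arl6ip1 (1.31 ± 0.32) and Ckap4, a linker of the endoplasmic reticulum to microtubules (1.22 ± 0.32). Dcc had 1.49% and 3.35% against 9.24% and 8.56% in the set labelled fresh-frozen and 3.05% and 1.60% against 6.95% and 4.33% in E16.5 brain. The calls of Baz1b and Ckap4 were lost without the set labelled fresh-frozen.

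Genes with the most shared positions were Rpa1 with 5, Wipi2 and Rbbp4 with 4, and 15 genes with 3, of which Zfp811 and Rtn4 are described. Rtn4 rose by 1.43 ± 0.20 (adjusted p = 2.19e-12), and its A-to-G positions are adjacent bases that share reads. Rpa1 at 0.17 ± 0.13, Wipi2 at -0.07 ± 0.15 and Zfp811 at 0.14 ± 0.19 did not pass the test, and each holds positions edited without treatment. Rbbp4, a histone-binding protein, was not tested for want of reads in 1 library of E12.5 brain. Its shares were 1.23% and 2.70% with IgG against 4.95% and 5.39% with anti-G3BP1 in E16.5 brain.

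Lists of genes by function were read at the level of positions. Of the 8 tested positions in the chromatin list, which held 11 shared positions in 8 genes (among them Arid1a, Chd4, H3f3a, H3f3b and Kmt2d), 5 were called higher, with a median log2 change of 1.37. Of hnRNP and SR splicing factors, 3 of 5 tested positions were called higher (median 1.35). A signalling list joined 14-3-3, calmodulin and G proteins with others, and 3 of its 3 were called, in Gnas, Ppp1cb and Ywhag (median 1.38). Of imprinted and growth genes 3 of 4 were called (median 0.91), of chaperones 1 of 3 (median 1.27), of tubulins 1 of 2 and of ubiquitin and proteasome genes 1 of 3. Over all 428 tested positions the median was 1.28, and 45.1% were called higher. Atxn2, which encodes a stress granule protein, held the only shared position of the list of RNP granule proteins, and it was called, at a log2 change of 2.27. None of the genes listed as translation elongation and initiation factors, mitochondrially encoded, nuclear long non-coding RNAs or known targets of endogenous recoding held a shared position. These lists are not complete. The initiation factor gene Eif5 was not listed, but was tested at its shared positions and called higher as a gene (1.97 ± 0.48, adjusted p = 2.2e-05). Its call was lost in limma and without E16.5 brain. These lists were made with earlier results of these data known.

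Among list members tested as genes, the alpha tubulin Tuba1b rose by 1.92 ± 0.50, with 0.808% and 0.266% against 4.81% and 3.08% in E16.5 brain. Its call was lost in limma and without E16.5 brain. The imprinted genes Grb10, a receptor adaptor, and Mest changed by 1.15 ± 0.45 (adjusted p = 0.0151) and 0.56 ± 0.21 (adjusted p = 0.0116). Both calls were lost in edgeR and without the set labelled fresh-frozen. Hnrnpk at 1.07 ± 0.43 lost its call in limma, in edgeR and without that set. Arid1a was called at an adjusted p of 0.0472 and lost the call in 18 of 32 other settings. The myosin Myh10 (0.94, adjusted p = 0.257) and the chaperone Hsp90aa1 (0.52, adjusted p = 0.359) were not called.

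The IgG share at the same positions differed between tables. It was tested over the IgG libraries alone, and 44 of the 428 positions (10.3%) and 17 of the 38 genes (44.7%) were called. The fixed embryo was the lowest of the 4 tables in 39 of the 44 positions and in 15 of the 17 genes. In these counts a tie for the lowest share went to the fixed embryo. Over all 513 positions under 50%, with ties left out, it was strictly the lowest at 124 (24.2%), so these counts are not alike. The count over all 38 genes is not given. The median IgG share over the 513 was 0.276% in the fixed embryo, 0.490% in the set labelled fresh-frozen, 0% at E12.5 and 0.621% at E16.5. The gene Wipi2, which acts in the formation of autophagosomes, had the smallest p (adjusted p = 1.57e-33), with 2.04% and 1.27% in the fixed embryo, 9.83% and 9.84% in the set labelled fresh-frozen, 6.86% and 6.74% at E12.5 and 16% and 17.6% at E16.5. Its E16.5 libraries were the highest and did not overlap with those of any other table.

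In Rtn4, which had almost no untreated edits at the position shown, the IgG shares summed per gene were 0.602% and 0.532% in the fixed embryo, 1.94% and 2.42% in the set labelled fresh-frozen, 2.96% and 5.49% at E12.5 and 3.79% and 3.14% at E16.5 (adjusted p = 2.6e-08). The fixed embryo lay below every other library. Mest had 2.80% and 4.44%, 11.2% and 7.06%, 2.90% and 19.4%, and 12.7% and 13.3% in the same order (adjusted p = 3.33e-10), and its E12.5 replicates spanned most of that range. For genes, edgeR called 12 differences and limma 11. At positions, edgeR called 0 differences in the IgG share and limma called 134, and without the first IgG library of the fixed embryo 3 were called. Stage, tissue and preparation differ together between the tables and cannot be told apart in this comparison. The plan of the tests names sex too as confounded with table.

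**Figure D4:**
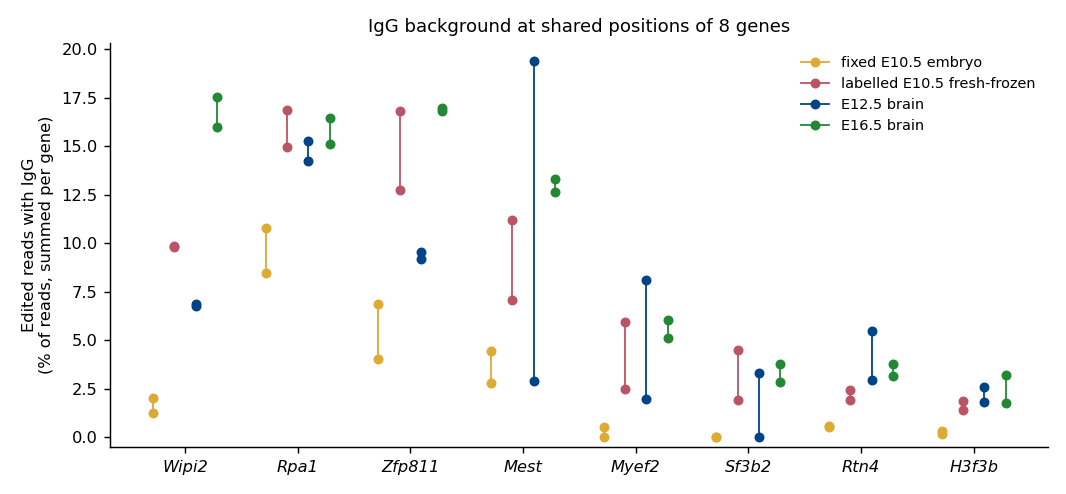
Edited share with IgG (percent of reads summed over the shared positions of a gene, y axis) for 8 of the 17 genes called (x axis), with the 2 IgG libraries of each table joined by a line. The fixed embryo is lowest at Wipi2, Rpa1, Zfp811, Myef2, Rtn4 and H3f3b, overlaps with E12.5 brain at Mest and shares a value of 0% with it at Sf3b2.

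The change from IgG to anti-G3BP1 was tested for a difference between the 4 tables in the same model. No position (0 of 428, 0%) and no gene (0 of 38, 0%) was called, while 24 positions and 8 genes had an unadjusted p under 0.05. With limma 1 gene and 0 positions were called, and with edgeR none of either. The gene first in rank was Sppl3, an intramembrane protease (adjusted p = 0.106). It had 1.43% and 0.744% with IgG against 8.83% and 10.503% with anti-G3BP1 in the set labelled fresh-frozen, 0.815% and 0.288% against 0% and 0% in the fixed embryo, and 2.78% and 3.41% against 5.21% and 1.08% in E12.5 brain. In E16.5 brain it had 0.646% and 1.53% against 2.97% and 2.22%. Ssr3, Ube2d1, Eif5, Fkbp1a, Rtn4, Fads1 and Wipi2 followed, with adjusted p-values of 0.106 to 0.225. Without the first anti-G3BP1 library of E12.5 brain 5 genes were called, and without the first of E16.5 brain 3. A difference between E16.5 and E12.5 brain was called at 0 positions and in 0 genes, with 30 positions and 1 gene at an unadjusted p under 0.05.

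Each table was also fitted on its own, with all of its positions, so that the shared positions could be read against the rest. Here too a position or gene needed 10 edited reads in the antibody libraries of the table, which anti-G3BP1 reads alone could give. Counts, signs and medians from these fits, here and in the paragraphs that follow, describe those that passed. In the set labelled fresh-frozen 19 of the 222 shared positions tested were called higher, against 3.36% of all positions of the table. In E16.5 brain 10 of 274 were called, against 0.603%. In the fixed embryo 0 of 55 and in E12.5 brain 0 of 113 were called, where 0% of all positions were called in either table. At an unadjusted p under 0.05, 5, 101, 7 and 125 shared positions were higher in the fixed embryo, the set labelled fresh-frozen, E12.5 brain and E16.5 brain. The share of all positions of a table at that threshold was not counted, so these numbers cannot be read as particular to shared positions.

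The positions called in the fit of the set labelled fresh-frozen were, besides Rtn4, Nme1, Tcaf1, Tmx4, Palm, Tspan13 and Nedd4, those in Tsn, Snrnp200, Kdm1a, Sppl3, Atxn2, Mest, Serinc1, H3f3b, Tnrc6c, Cbx6, Dgcr2 and Dcc. Snrnp200 is a spliceosomal helicase, Kdm1a a histone demethylase and Tnrc6c a partner of Argonaute. Tmx4, Tcaf1, Palm, Rtn4 and Tspan13 were called in E16.5 brain too, with Myef2, Hsph1, Arl6ip1, Sf3b2 and the adjacent Rtn4 position. These names were read from the calls.

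All 19 positions called in the set labelled fresh-frozen were above 0 in E16.5 brain, in 16 both anti-G3BP1 libraries lay above both IgG libraries, and 5 were called. Of the 191 positions tested in both tables, 166 were above 0 in E16.5 brain. In E12.5 brain 13 of the 19 were tested, all 13 above 0 and 8 with replicates apart, and in the fixed embryo 5 were tested, 4 above 0. Of all positions tested in the set labelled fresh-frozen and in the other table, 84 of 98 were above 0 in E12.5 brain and 29 of 50 in the fixed embryo. The 10 called in E16.5 brain were all above 0 with replicates apart in the set labelled fresh-frozen. They were also above 0 in E12.5 brain, 7 with replicates apart. Of all positions tested in E16.5 brain and in the other table, 173 of 191 were above 0 in the set labelled fresh-frozen and 96 of 111 in E12.5 brain. Replicates apart were not counted over positions tested in both tables of a pair. Over all shared positions tested in a table, both anti-G3BP1 libraries lay above both IgG libraries at 63.5% in E16.5 brain. The same held at 69.8% in the set labelled fresh-frozen and at 41.6% in E12.5 brain.

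Separation of the replicates was counted in each table for its tested positions. These could pass through their anti-G3BP1 reads alone, so the counts are descriptions for shared and for all positions. Both anti-G3BP1 shares lay above both IgG shares at 13 of 55 shared positions in the fixed embryo, against 16.7% of all tested. The counts were 155 of 222 in the set labelled fresh-frozen, against 61.8%, and 47 of 113 in E12.5 brain, against 33.5%. In E16.5 brain it was 174 of 274, against 50.5%. Both lay below at 7, 3, 7 and 8 shared positions. The share of all tested positions with both below was not counted, so these numbers cannot be read as particular to shared positions. Median log2 changes of the shared positions were 0.16, 1.79, 1.35 and 1.26, and those of all tested positions were 0.12, 1.61, 1.94 and 1.03.

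**Figure D5:**
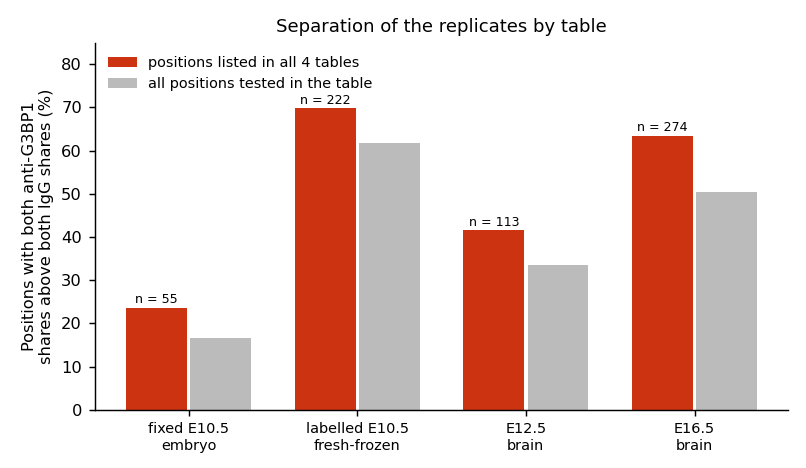
Percentage of tested positions at which both anti-G3BP1 libraries had a higher edited share than both IgG libraries (y axis) in each table (x axis), for shared positions (red, number above the bar) and for all tested positions (grey). The shared positions are at 23.6%, 69.8%, 41.6% and 63.5%, and all positions at 16.7%, 61.8%, 33.5% and 50.5%.

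At the level of genes, reads at shared positions were tested beside reads at all other positions of every gene in the table. In the set labelled fresh-frozen 41 of 143 genes were called higher at their shared positions, against 10.9% of all gene features, and in E16.5 brain 39 of 240, against 11.7%. In the fixed embryo 0 of 53, against 0%, and in E12.5 brain 0 of 27, against 0.325%, were called. At an unadjusted p under 0.05, 8 and 6 were higher, with no count over all gene features beside them. Median log2 changes were 0.40, 1.95, 1.07 and 1.26 at the shared positions and 0.29, 0.95, 0.83 and 0.70 over all gene features of the fixed embryo, the set labelled fresh-frozen, E12.5 brain and E16.5 brain. All 41 genes called in the set labelled fresh-frozen were above 0 in E16.5 brain, 35 with replicates apart, and 13 were called in both. Of all 123 genes tested in both, 117 were above 0 in E16.5 brain, and the number of these with replicates apart was not counted. Tested against the median change of the table in place of 0, calls were 2 genes and 0 positions in the set labelled fresh-frozen, and 2 genes and 3 positions, all of them lower, in E16.5 brain. Calls within a table also rested on single libraries. Without either anti-G3BP1 library of the set labelled fresh-frozen, 0 genes and 0 shared positions were called there. Without the first or the other IgG library of E16.5 brain, 1 and 3 genes and 0 positions were called. In E12.5 brain, where no shared position was called, 20 were called without the first anti-G3BP1 library and 32 without the other.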

How the data were processed

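Poly(A) RNA was sequenced in 20 libraries, 10 groups of 2 as the labels give them, and 0 columns of per-sample values were left unmapped. Per the file headers, the deposited tables of editing, 4 in all, give counts of the reads covering each site and of those with the edited base in each library. TPM values, calculated by the authors and deposited in 4 further tables, were used for host genes and tissue markers. The submitters' processing notes name HISAT2 2.2.1 and BWA 0.7.17, featureCounts 2.0.1 of Subread, GATK 4.5.0.0 and Picard 3.1.1, and the builds mm10 and GRCm38. Neither their settings nor how a site came to be listed is given in the sources used here. A single edited read was rarer than a pair of them in most libraries of the embryo tables, and how such reads were treated is not given either. At 393 of the 539 positions every table lists 1 alternative allele. At the other 146 more than 1 is listed in some table, and whether the edited count holds only the expected base there is not given.

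Repeated lines (36, 104, 104 and 215) were removed, and positions were joined on chromosome, end coordinate and reference base. Gene, region and flanking bases came from GENCODE vM21, and the reference base was the same as the transcript base at all 539 positions. The members, lists and tests were chosen with earlier results of these data known. Each position or gene was fitted with a quasi-binomial logistic model with 0.25 added to its edited and to its unedited reads in each library. The Pearson dispersion was shrunk towards a trend on edited reads by the squeezeVar function in limma 3.58.1 (R 4.3.3), with a floor of 1. Features with 10 or more edited reads were tested, genes only with 50 or more reads in every library, and p-values (two-sided) were adjusted by Benjamini-Hochberg over all features tested. Fits over the 4 tables held table as a block, and fits within a table held all of its positions. Ratios of pooled shares carry no test. Counting error alone limits shares near 0, and depth per library is given with the results.

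Genes were named by a rule: the 10 with the largest called change in each direction among those with 20 or more edited reads and groups apart in at least 3 tables, the 5 with most positions, the 8 with the smallest p for a difference, and up to 2 per list. Positions were the 8 of each edit type with the smallest p and the 6 with the highest untreated share. Alternatives were other read minimums, other filters on share, each edit type, 0.5 added reads, limma on the empirical logit, edgeR 4.0.16, a replicate block, the median change as reference, and leaving out each library or table. The limit of 50% on the share, positions with 1 alternative allele, genes without a read minimum and the classes by untreated share were added after the data were seen. Same-numbered IgG and anti-G3BP1 libraries did not deviate together over 428 positions (r = -0.027, -0.040, 0.0097 and 0.016 by table), and the numbers were not taken as pairs. Counting error at few edited reads draws r towards 0, so these values cannot show that pairs are absent. The replicate block gives the fits with pairs.

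On simulated reads for 428 positions over the 4 tables, 34.0% of those given a log2 change of 1 and 73.0% of those given 2 were called. The sequence of 1 position is not reported here.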

Additional observations from a re-analysis of the deposited data

How the results depend on the processing

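Each named gene or position was fitted in 33 or fewer settings. The counts that follow cover 658 of the resulting values, not all of them. Of the 658, 52 fell short of the threshold that the reported value passed, and 4 passed it where the reported value did not. Of the 658, 0 were called in the opposite direction, and changes of sign without a call were not counted. Median depth at the positions was lowest, at 20 reads, in the first IgG library of E12.5 brain.

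The log2 ratio of pooled shares (0.83 on average, and 0.68, 1.08, 0.97 and 0.58 in the fixed embryo, the set labelled fresh-frozen, E12.5 brain and E16.5 brain) stayed above 0 in every setting. It became 1.16 with 30 reads in every library (0.81, 1.67, 1.18 and 0.97 by table) and 0.41 as a mean of the positions' own shares (0.15, 0.70, 0.45 and 0.34). It was 1.27 without the 100 positions with most edited reads (0.90, 1.90 and 1.20 in the fixed embryo, the set labelled fresh-frozen and E16.5 brain) and 1.25 without positions at 10% or more in any library (2.08 and 1.15 in the last 2). Without positions at 50% or more it was 1.15 (0.90, 1.56, 1.17 and 0.94). With 1 alternative allele it was 0.46, 1.42 and 0.74 in the fixed embryo, the set labelled fresh-frozen and E16.5 brain, and in the set labelled fresh-frozen it was 1.13 with positions of 1 gene only and with edited counts of 1 set to 0. For A-to-G (0.94) these settings gave 1.18, 0.55, 1.42, 1.48 and 1.21, and for C-to-T (0.49) the first 2 gave 0.82 and 0.0737.

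Of genes over all tables, 26 were called higher. The count was 14 without positions at 10% or more, 16 with A-to-G alone or with 1 alternative allele, 1 with C-to-T alone, 12 with limma, 13 without the set labelled fresh-frozen and 191 of 373 with no minimum of reads. Called lower was 1 gene with no minimum, without E16.5 brain or, among fits without a library (0 to 1), without the second anti-G3BP1 library of E16.5 brain. A difference between tables was called in 1 gene with C-to-T alone, limma or 1 alternative allele, and in 0 to 5 without a library. The count of IgG differences in genes (17) was 10 with 20 reads, 0 without positions at 10% or more and with C-to-T alone, 11 with A-to-G alone, limma or 1 alternative allele, 54 with no minimum, and 11 to 17 without a library, the lowest without the second IgG library of E16.5 brain.

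Of positions over all tables, 193 were called higher. The count was 107 with 20 reads, 97 without positions at 10% or more, 102 with limma, 123 with edgeR and 114 without E16.5 brain. Called lower were 0 in limma, in edgeR and without positions at 10% or 50% or more, and 2 with edited counts of 1 set to 0, without E16.5 brain or without the first IgG library of that brain or of the set labelled fresh-frozen (1 to 2 without a library). Differences between tables were called at 1 position with 20 reads and at 2 without positions at 10% or more. The 44 IgG differences became 28, 0, 69, 134, 0 and 67 with 20 reads, without positions at 10% or more, with 0.5 added reads, limma, edgeR and without positions at 50% or more, and 3 to 52 without a library: 3 and 12 without the first and the other IgG library of the fixed embryo and 20 to 26 without an IgG library of either brain.

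Within tables, calls against the median change were 2 genes and 0 positions in the set labelled fresh-frozen and 2 genes and 3 positions, all lower, in E16.5 brain. With 30 edited reads 47 and 0 positions were called in them. Without a library, 0 to 12 genes and 0 to 27 positions were called in the set labelled fresh-frozen, 0 to 6 and 0 to 32 in E12.5 brain, and 1 to 16 and 0 to 35 in E16.5 brain. The cause of these changes was not tested.

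The replicate block left 26 genes and 175 positions higher over all tables. Within tables the block called 0 positions in the set labelled fresh-frozen, 74 in E16.5 brain and 1 gene and 1 position (lower) in E12.5 brain.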
